A study of Mus musculus with 6 samples.

Results

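The 10 genes *Gcg*, *Gip*, *Cck*, *Sct*, *Sst*, *Ghrl*, *Nts*, *Tac1*, *Chga* and *Tph1* encode hormones and granule proteins of the enteroendocrine cells of the gut. They were taken by symbol from a table of 22611 genes, by a rule that uses no measured value, though the choice was made with earlier results of these data known, and all 10 were among the 10596 genes whose mean level over the libraries was above 1 FPKM, a unit that scales the sequenced fragments of a gene by transcript length and by the library's mapped reads. The table came from RNA-seq of duodenal epithelium of 3 WT and 3 *Esrra*-/- mice (labelled ESRRAKO), and the comparison asked how epithelial transcripts differ when the nuclear receptor ESRRA is lost. The *Esrra*-/- mice carried a germline deletion, so the receptor was missing from every tissue and not from the epithelium alone, and the controls labelled WT were littermates. The study's breeding scheme brought together a null allele, a floxed allele and a *Villin-CreERT2* transgene, an inducible Cre driven in the intestinal epithelium, and which of these each WT mouse carried is not given in the sources used here. The diet of all 6 mice was high in fat for some 8 weeks, both sexes were used, and the age at collection is not given. The epithelium was released from the first part of the small intestine with EDTA, and the labels describe no separation of crypts from villi.

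Enteroendocrine cells are rare, scattered cells of the epithelium that sense the contents of the lumen and release peptide hormones or serotonin. They arise from crypt progenitors through the transcription factor *Neurog3*, and single cells commonly make more than one hormone, the blend changing along the gut and as the cell migrates from crypt to villus. In the duodenum they are known for secretin, cholecystokinin and glucose-dependent insulinotropic polypeptide (GIP), which act on the pancreas, gall bladder and islets after a meal. In bulk epithelium a lower level of such a transcript can reflect fewer cells of the type or less RNA per cell, which cannot be told apart here.

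*Esrra* itself was at 49.4, 73.5 and 104 FPKM in the WT libraries and at 10.4, 9.42 and 8.72 in the *Esrra*-/- libraries, a log2 fold change of -2.92 (SE 0.26, adjusted p = 0.0215, limma, n = 3 per genotype). The groups did not overlap, and every library matched its label. The epithelial markers were high, with 10 of 10 enterocyte markers tested and none called, whereas *Ins1*, *Mafa*, *G6pc2* and *Ppy* of the pancreatic islet, *Gkn1*, *Gkn2*, *Tff1* and *Muc5ac* of the stomach, and *Vip* and *Sox10* of enteric neurons and glia were listed at 0 in all 6 libraries. The summed level was at most 1.89 FPKM for the 8 islet markers, 1.79 for the 8 stomach markers and 2.64 for the 12 neuronal and glial markers, led by *Iapp*, *Pgc* and *Ret*. The 12 pancreatic acinar genes, led by *Clps*, were not near 0, with sums of 174 to 307 FPKM in WT and 46.8 to 159 in *Esrra*-/-. Nor were the 8 immune markers, led by *Gzma*, with sums of 90.8 to 146 FPKM in WT and 72.6 to 184 in *Esrra*-/-. Over all genes tested, 348 were called lower and 143 higher in *Esrra*-/-, a call needing a p under 0.05 before adjustment and a fold change of more than 0.58 in size on the log2 scale, and 4 passed after adjustment.

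The sequence before the start of the genes was read to see whether the motif that ESRRA is known to bind was present. RefSeq promoter windows on GRCm38.p6 were found for all 10 genes, and the 250 bases before each start were searched on both strands. The full motif TCAAGGTCA was in 0 of the 10 genes, against 0.422% of 27025 genes, and its core AAGGTCA, which the full motif contains, was in 1 gene, *Sct*, against 4.70% of genes. The cAMP response element TGACGTCA was in *Sst* alone, against 1.77% of genes, and the TATA box TATAAA was in *Sct* and *Gcg*, against 14.3%. The windows shown are those of *Sct*, *Sst* and *Gcg* because they hold a match and that of *Gip*, the most abundant of the genes, because it holds none. They lie at chr7:141279134-141279383 on the minus strand (*Sct*), chr16:23890845-23891094 on the minus strand (*Sst*), chr2:62483654-62483903 on the minus strand (*Gcg*) and chr11:96024295-96024544 on the plus strand (*Gip*), and each is written along the gene's strand with the matches in capitals.
Sct: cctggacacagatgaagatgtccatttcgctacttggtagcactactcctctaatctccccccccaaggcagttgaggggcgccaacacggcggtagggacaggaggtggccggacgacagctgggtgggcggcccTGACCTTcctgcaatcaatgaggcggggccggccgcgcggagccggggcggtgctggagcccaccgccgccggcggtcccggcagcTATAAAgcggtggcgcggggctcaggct
Sst: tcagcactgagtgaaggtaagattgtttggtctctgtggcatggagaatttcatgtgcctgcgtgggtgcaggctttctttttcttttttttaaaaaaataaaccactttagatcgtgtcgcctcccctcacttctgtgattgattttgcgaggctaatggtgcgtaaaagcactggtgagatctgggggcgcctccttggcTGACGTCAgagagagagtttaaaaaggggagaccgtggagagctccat
Gcg: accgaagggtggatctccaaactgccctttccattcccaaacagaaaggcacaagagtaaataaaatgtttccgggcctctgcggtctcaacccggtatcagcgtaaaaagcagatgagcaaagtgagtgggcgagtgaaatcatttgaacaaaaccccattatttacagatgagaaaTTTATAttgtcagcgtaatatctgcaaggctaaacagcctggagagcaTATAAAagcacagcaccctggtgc
Gip: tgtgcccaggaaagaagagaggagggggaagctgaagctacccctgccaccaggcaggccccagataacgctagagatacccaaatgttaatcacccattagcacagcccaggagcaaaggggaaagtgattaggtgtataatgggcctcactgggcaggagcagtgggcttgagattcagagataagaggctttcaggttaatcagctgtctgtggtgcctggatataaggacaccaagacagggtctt
In *Sct* the core motif lay on the other strand, 114 to 108 bases before the start, and the TATA box 28 to 23 bases before it. The cAMP response element of *Sst* lay 48 to 41 bases before the start. *Gcg* held TATAAA on its own strand 24 to 19 bases before the start and once more on the other strand 72 to 67 bases before it. These are matches of letters in short windows, and no binding data were used here.

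*Gip*, which encodes the incretin GIP of duodenal K cells (chromosome 11, 95885859 to 95892145, plus strand, mm9), had the highest mean level of the 10 genes. It was at 96.2, 123 and 170 FPKM in WT and at 118, 89.1 and 117 FPKM in *Esrra*-/-. The *Esrra*-/- values lay within or just under the WT range, and WT replicate 3 was the highest library. The means were 130 ± 37.3 FPKM in WT and 108 ± 16.3 in *Esrra*-/- (SD, n = 3), a log2 fold change of -0.24 (SE 0.24, 95% interval -0.79 to 0.32, adjusted p = 0.746, limma).

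*Cck* encodes cholecystokinin, the hormone of I cells that empties the gall bladder and promotes satiety (chromosome 9, 121398943 to 121404807, minus strand). Its levels were 48.7, 53.5 and 68.1 FPKM in WT and 51.2, 50.2 and 62.7 FPKM in *Esrra*-/-, the narrowest spread of the 10 genes. In both genotypes the third replicate was the highest and the other two lay close together. The log2 fold change was -0.05 (SE 0.17, 95% interval -0.45 to 0.36, adjusted p = 0.941), an interval that stayed inside the 0.58 used for a call. For *Sct*, which encodes secretin, the S-cell hormone that drives bicarbonate secretion (chromosome 7, 148464230 to 148465032, minus strand), the libraries gave 51.2, 51.2 and 77.8 FPKM in WT and 69.0, 53.6 and 64.2 in *Esrra*-/-. All *Esrra*-/- values fell between the lowest and the highest WT value. The difference was 0.07 on the log2 scale (SE 0.20, 95% interval -0.40 to 0.55, adjusted p = 0.917), also inside 0.58.

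*Ghrl* encodes ghrelin, the appetite-promoting peptide made mainly in the stomach and also in the upper small intestine (chromosome 6, 113666113 to 113669874, minus strand). It was at 20.2, 18.4 and 36.6 FPKM in WT and 25.2, 21.0 and 28.3 FPKM in *Esrra*-/-. WT replicate 3 stood above the other 5 libraries, and the 3 *Esrra*-/- libraries lay between the WT extremes. The log2 fold change was 0.05 (SE 0.27, 95% interval -0.58 to 0.67, adjusted p = 0.964). *Sst*, whose product somatostatin is released by D cells and restrains the secretion of other gut hormones (chromosome 16, 23889667 to 23890930, minus strand), spread most widely. Its levels were 67.2, 91.3 and 198 FPKM in WT and 94.8, 72.0 and 151 FPKM in *Esrra*-/-, a 2.95-fold span. The third replicate was highest in each genotype, and the ranges overlapped almost entirely. The log2 fold change of -0.08 carried the largest SE of the 10 genes, 0.43 (95% interval -1.09 to 0.93, adjusted p = 0.959), so differences between these bounds remained possible.

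*Gcg* encodes proglucagon, from which L cells cut the incretin GLP-1 (chromosome 2, 62312587 to 62321707, minus strand). Its levels were 21.5, 35.0 and 26.5 FPKM in WT and 21.8, 31.5 and 15.4 FPKM in *Esrra*-/-. The second replicate was highest in both genotypes, and *Esrra*-/- replicate 3 was the lowest of all. The log2 fold change was -0.30 (SE 0.29, 95% interval -0.97 to 0.37, adjusted p = 0.735). *Nts* encodes neurotensin, a peptide of N cells that promotes fat absorption (chromosome 10, 101944394 to 101953052, minus strand). It was at 25.9, 47.0 and 47.7 FPKM in WT and 57.2, 35.5 and 36.0 FPKM in *Esrra*-/-, with the lowest library in WT and the highest in *Esrra*-/-. One library in each genotype stood apart from the other two, in opposite directions, and the log2 fold change was 0.11 (SE 0.29, 95% interval -0.57 to 0.79, adjusted p = 0.913).

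*Tac1*, the tachykinin precursor that gives substance P (chromosome 6, 7505071 to 7512973, plus strand), is made by serotonin-releasing enteroendocrine cells and by enteric neurons. It was the least abundant of the 10 genes, at 4.13, 7.73 and 6.30 FPKM in WT and 3.57, 6.31 and 3.30 FPKM in *Esrra*-/-. A pair of *Esrra*-/- libraries lay below all WT libraries, and *Esrra*-/- replicate 2 lay inside the WT range. The means were 6.06 ± 1.81 FPKM and 4.39 ± 1.67 FPKM (SD, n = 3), a log2 fold change of -0.47 (SE 0.31, 95% interval -1.19 to 0.26, adjusted p = 0.613, limma), the largest difference among the 10 genes and one that did not pass. Without *Esrra*-/- replicate 2, *Tac1* was called lower, at -0.76 on the log2 scale (adjusted p = 0.356, limma). The mesenchymal marker *Vim* had a like profile, at 2.07, 3.91 and 2.86 FPKM in WT and 1.97, 3.46 and 1.88 FPKM in *Esrra*-/-, and its part in the result was not tested.

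*Chga* encodes chromogranin A, the granule protein that is the general marker of enteroendocrine cells (chromosome 12, 103793179 to 103803237, plus strand). Its levels were 25.5, 39.6 and 41.6 FPKM in WT and 29.4, 32.9 and 38.4 FPKM in *Esrra*-/-, every *Esrra*-/- value inside the WT range. The log2 fold change was -0.06 (SE 0.21, 95% interval -0.56 to 0.44, adjusted p = 0.939), the third interval of the 10 that stayed inside 0.58. *Tph1* encodes tryptophan hydroxylase 1, the enzyme that commits tryptophan to serotonin in enterochromaffin cells (chromosome 7, 53902500 to 53927907, minus strand). It was at 5.12, 6.59 and 5.68 FPKM in WT and 4.79, 4.87 and 9.03 FPKM in *Esrra*-/-. *Esrra*-/- replicate 3 was the highest library while the other *Esrra*-/- libraries were the lowest, and the log2 fold change was 0.05 (SE 0.26, 95% interval -0.55 to 0.65, adjusted p = 0.962). Mast cells also make *Tph1*, and the mast cell proteases *Mcpt1* (26.4, 12.6 and 3.75 FPKM in WT against 1.94, 1.73 and 1.63 in *Esrra*-/-, log2 fold change -2.55) and *Mcpt2* (log2 fold change -2.83) were both called lower, with a summed level over the 7 mast cell markers of 9.80 to 40.1 FPKM in WT and 3.87 to 5.42 in *Esrra*-/-. The smallest adjusted p among the mast cell markers was 0.0918 (limma), and 3.28% of all genes tested were called lower. What part mast cells had in the *Tph1* level was not tested.

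**Figure D1:**
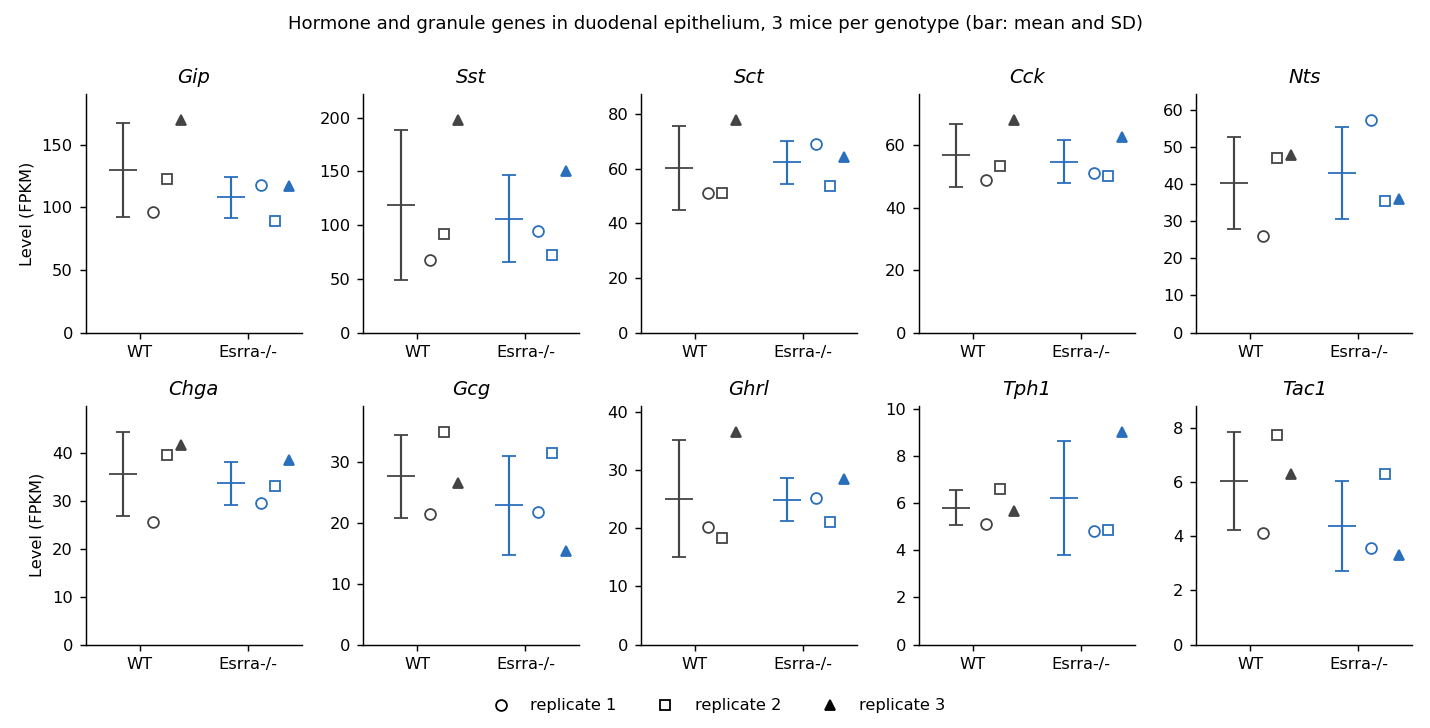
Level of each of the 10 genes in FPKM (vertical axes from 0, a scale for each gene) in the 3 WT and 3 *Esrra*-/- libraries, with symbols for the replicate number and bars for the mean and SD. The genotypes overlap for all 10 genes, *Sst* has its highest value in the third replicate of each genotype (198 and 151 FPKM), and *Gcg* and *Tac1* have their lowest in *Esrra*-/- replicate 3.

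Read together, 0 of the 10 genes were called lower or higher by limma, where 3.28% of all genes tested were called lower, 1.35% higher and 4.63% either way. None had an unadjusted p under 0.05, against 10.8% of all genes tested, and none passed after adjustment, against 0.0378%. The values of the genotypes overlapped for all 10 genes, while 17.6% of all genes tested had groups that did not overlap. The log2 fold change was negative for 6 genes and positive for 4, and their median was -0.05, beside 0.03 over all genes tested. The intervals give the range of differences these libraries left possible. For 3 genes (*Cck*, *Sct* and *Chga*) the interval lay within 0.58 on either side of 0, and for 8 it lay within 1, *Sst* and *Tac1* being the exceptions. The SEs ran from 0.17 to 0.43, and 9 of the 10 were above the median SE of all genes tested (0.19). The study describes the 3 libraries of each genotype as biological replicates.

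**Figure D2:**
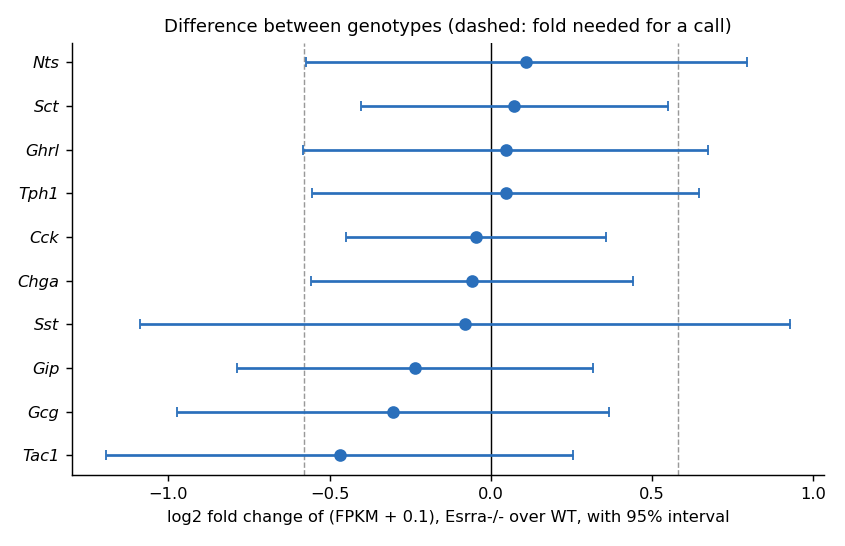
Log2 fold change of (FPKM + 0.1) in *Esrra*-/- over WT for each gene (horizontal axis), as points with the 95% interval from limma, and dashed lines at -0.58 and 0.58. Every interval spans 0, the narrowest being that of *Cck* (-0.45 to 0.36) and the 2 that reach past -1 being those of *Sst* and *Tac1*.

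Because FPKM is scaled by transcript length, the levels of the 10 genes could be set in order. Averaged over the 6 libraries, *Gip* (119 FPKM) and *Sst* (112) led, followed by *Sct* (61.2), *Cck* (55.7), *Nts* (41.6), *Chga* (34.6), *Gcg* (25.3), *Ghrl* (25.0), *Tph1* (6.01) and *Tac1* (5.23). The ranges of neighbours in this order overlapped in every case but that of *Ghrl* and *Tph1*, which were separated in all 6 libraries. *Gip* was above *Sst* in 4 libraries and below it in the third replicate of each genotype, where the ratio of *Sst* to *Gip* was 1.17 and 1.29 against 0.699 to 0.808 elsewhere. *Gcg* and *Ghrl* changed places from library to library, each above the other in 3 of 6, as did *Tph1* and *Tac1*. *Gip* stood above 92.6% of the genes tested and *Tac1* above 32.4%. Summed, the 10 genes gave 366, 473 and 678 FPKM in WT and 475, 397 and 525 FPKM in *Esrra*-/-, means of 506 ± 159 and 466 ± 64.4 (SD, n = 3), and the *Esrra*-/- values all lay within the WT range.

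Set against *Chga* in the same library, as a rough scale for the amount of enteroendocrine RNA, the other 9 genes again overlapped between genotypes. The ratio of *Cck* to *Chga* averaged 1.63 in each genotype. That of *Sst* was 2.63, 2.31 and 4.75 in WT and 3.22, 2.19 and 3.92 in *Esrra*-/-, so the higher *Sst* of the third replicates remained after scaling by *Chga*. For *Nts* the ratio was 1.02, 1.19 and 1.15 in WT and 1.94, 1.08 and 0.938 in *Esrra*-/-, a single *Esrra*-/- library standing above the rest.

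The 10 genes did not vary as one block from library to library. Likeness was measured as the root mean square difference, over the 6 libraries, between the deviations of 2 genes' log2 levels from their own means, a description with no test. Among the 45 pairs the closest were *Sct* and *Ghrl* (0.139), *Cck* and *Chga* (0.153), *Cck* and *Sct* (0.156) and *Gcg* and *Tac1* (0.167), and the median pair differed by 0.389. The farthest pair was *Sst* and *Gcg*, at 0.774. *Sst* deviated by 0.93 and 0.54 on the log2 scale in the third replicates of WT and *Esrra*-/-, where *Gcg* deviated by 0.12 and -0.66. In WT replicate 3, 6 genes had their highest value of all (*Gip*, *Cck*, *Sct*, *Ghrl*, *Sst* and *Chga*).

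The third replicates also stood apart in other respects. The enterocyte markers deviated by a median of 0.21 and 0.27 on the log2 scale in the third replicates of WT and *Esrra*-/-, and the sum of all FPKM in the table was highest there, at 999902 and 901171 against 707094 to 818406 in the other 4 libraries. The 4 Y-linked genes examined summed to 0.0487 and 0.222 FPKM in the third replicates and to 27.3 to 46.7 FPKM elsewhere. Crypt markers had median deviations of 0.44, 0.62 and 0.04 in WT and -0.25, 0.22 and -0.82 in *Esrra*-/-, and Paneth markers 0.55, 1.34 and 0.12 in WT and -0.26, 0.12 and -2.04 in *Esrra*-/-. In a comparison chosen after the values were seen, 8 of the 10 genes were nearer to the enterocyte marker profile than to the crypt profile. *Gcg* (0.299 from the crypt profile, 0.584 from the enterocyte profile) and *Tac1* (0.366 and 0.620) were nearer to the crypt profile. The granule and prohormone processing genes, a list described below, gave a profile nearer than that of enterocytes to *Gip*, *Cck*, *Nts*, *Chga* (0.149 against 0.277) and *Tph1* (0.287 against 0.299). The same held for *Gcg* and *Tac1*, though both were nearer still to the crypt profile. For *Sct* (0.212 against 0.128), *Ghrl* and *Sst* the enterocyte profile was the nearer. The part of cell makeup, sex or the scaling of the values in these patterns was not tested. With the third replicate of each genotype left out, 0 of the 10 genes were called and *Sst* and *Tph1* changed sign, to 0.08 and -0.26.

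**Figure D3:**
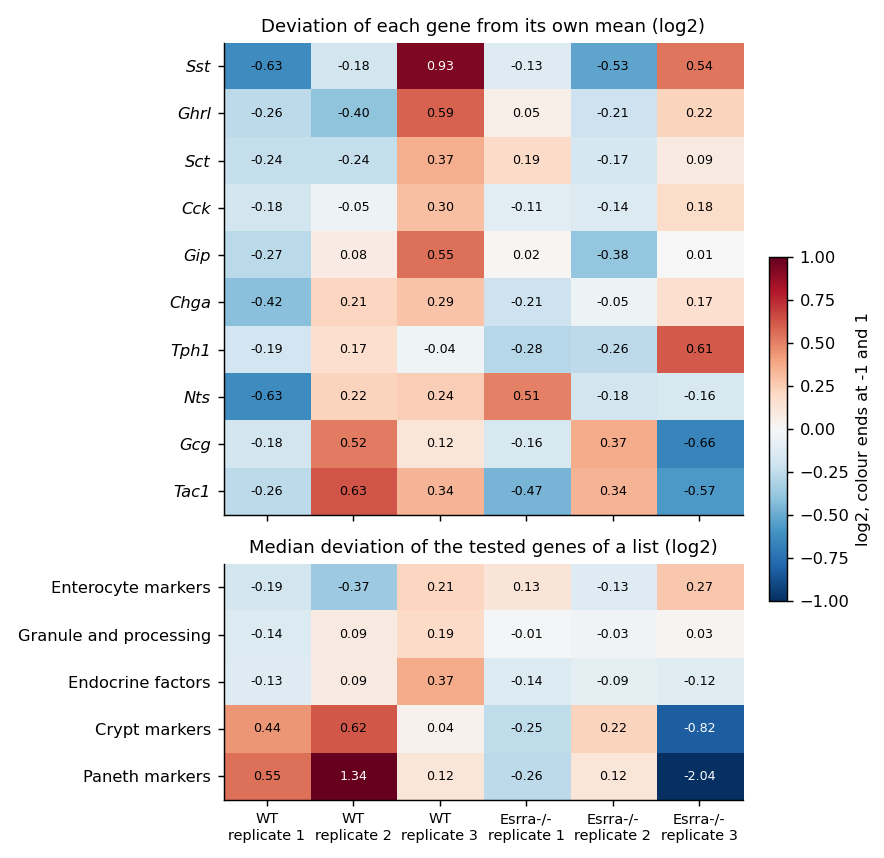
Deviation of each gene's log2(FPKM + 0.1) from its own mean over the 6 libraries (upper panel) and the median deviation of the tested genes of 5 other lists (lower panel), in colour and in figures, one column per library. *Sst* reaches 0.93 in WT replicate 3 and 0.54 in *Esrra*-/- replicate 3, and *Gcg* and *Tac1* are at -0.66 and -0.57 in *Esrra*-/- replicate 3, the library in which crypt markers are lowest (-0.82).

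Outside the 10 genes, the closest profiles to their mean profile among 10586 genes were those of *Cldn25* (a difference of 0.013), *9430023L20Rik* (0.027), *Dpysl2* (0.052), *Eif1b* (0.060) and *Pcbd1* (0.065). The nearest gene to a single one was *mt-Nd6* for *Gip*, *Ssr4* for *Cck*, *Gm10288* for *Sct*, *Cyp4x1* for *Ghrl*, *Pmp22* for *Sst*, *Zfp874a* for *Gcg*, *C2cd3* for *Nts*, *Vim* for *Tac1*, *Fam114a2* for *Chga* and *Pwwp2b* for *Tph1*. Second nearest were *Rab37*, *Tmsb4x*, *Anxa4*, *Sod1*, *Deptor*, *Dclk1*, *Tmprss9* and *Gm11175* for *Gip*, *Cck*, *Sct*, *Ghrl*, *Gcg*, *Nts*, *Tac1* and *Chga*, and for *Tph1* a gene whose symbol the table holds as a date. Of the 25 genes ranked in this way, 2 were on a list used here (*Vim* and *Dclk1*, a tuft cell marker) and 0 were on the lists of related genes described next.

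Related genes were examined as 6 lists, covering other gut peptides, granule proteins, serotonin handling, transcription factors, nutrient sensing, and hormone receptors and breakdown, several of which other epithelial cells express as well. They held 92 genes, of which 35 were tested, 0 were called by limma in either direction (4.63% of all genes tested) and 0 had an unadjusted p under 0.05 (10.8% of all genes tested). Their median log2 fold change was -0.01. Groups did not overlap for 3 of the 35 (*Foxa1*, *Neurog3* and *Scg3*), a smaller share than the 17.6% of all genes tested. *Gast*, which encodes gastrin, and *Ppy* were listed at 0 in all libraries, and *Pyy*, the L-cell peptide that often accompanies *Gcg*, was at 3.53, 11.7 and 12.0 FPKM in WT and 8.71, 9.62 and 5.81 FPKM in *Esrra*-/-. Its log2 fold change was -0.01 (SE 0.47), and *Nmb* was the only other gut peptide gene tested (-0.15).

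Of the genes for granule proteins and prohormone processing, 11 of 18 were tested and 7 had a negative log2 fold change, where 45.7% of all genes tested did. None was called, against 4.63% of all genes tested. *Chgb*, chromogranin B, was the most abundant, at 33.1, 47.9 and 45.1 FPKM in WT and 31.1, 39.6 and 43.4 FPKM in *Esrra*-/-, and its log2 fold change was -0.14 (SE 0.19). *Scg3*, a secretogranin, had the smallest p of the list (-0.50, adjusted p = 0.592, limma), followed by *Ptprn2* (-0.31) and *Pam*, the enzyme that amidates peptide hormones (0.21).

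All 8 tested transcription factors of the lineage, of 20 on the list, gave log2 fold changes below 0, their median being -0.23, where 45.7% of all genes tested were negative. None passed the test. *Neurog3*, the switch for the endocrine fate, was at 1.18, 1.16 and 1.69 FPKM in WT and 0.642, 1.15 and 0.920 FPKM in *Esrra*-/-, so that the groups did not overlap by a narrow margin (log2 fold change -0.53, SE 0.33, adjusted p = 0.591, limma). *Foxa1* was at 4.02, 4.06 and 4.48 FPKM in WT and 3.98, 3.16 and 3.25 FPKM in *Esrra*-/- (-0.27, SE 0.15, adjusted p = 0.549). *Nkx2-2*, which acts downstream of *Neurog3*, was at -0.50, and *Atoh1*, the secretory lineage factor and the most abundant of the list at a mean of 8.48 FPKM, was at -0.05. Crypt markers, in whose cells several of these factors are made, had a median log2 fold change of -0.67. All 7 were negative and 1 was called lower (*Smoc2*, -0.84, adjusted p = 0.247, limma), against 45.7% negative and 3.28% called lower of all genes tested. *Olfm4* was the most abundant crypt marker, and the summed levels were 152 to 276 FPKM in WT and 63.1 to 202 in *Esrra*-/-. The part of crypt cells in the factors' values was not tested.

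None of the 6 tested genes of serotonin handling, of 7 on the list, was called by limma or had an unadjusted p under 0.05, where 4.63% and 10.8% of all genes tested did. Their median log2 fold change was 0.19, with 0 of 6 below 0 against 45.7% of all genes tested. The list had median deviations of -0.35, -0.29 and 0.38 on the log2 scale in the WT libraries and -0.03, -0.19 and 0.35 in the *Esrra*-/- libraries, beside -0.19, -0.37 and 0.21 in WT and 0.13, -0.13 and 0.27 in *Esrra*-/- for the enterocyte markers, of which 1 of 10 was below 0. The part of enterocytes in these values was not tested. *Maoa*, the mitochondrial enzyme that degrades serotonin, was the most abundant, at 185, 189 and 319 FPKM in WT and 249, 204 and 350 FPKM in *Esrra*-/- (log2 fold change 0.23, SE 0.29). *Slc6a4*, the serotonin transporter, was at 0.01 and *Ddc*, which makes serotonin from the product of *Tph1*, at 0.02. *Gch1*, which supplies the cofactor of tryptophan hydroxylase, had the smallest p of the list (0.21, adjusted p = 0.759).

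**Figure D4:**
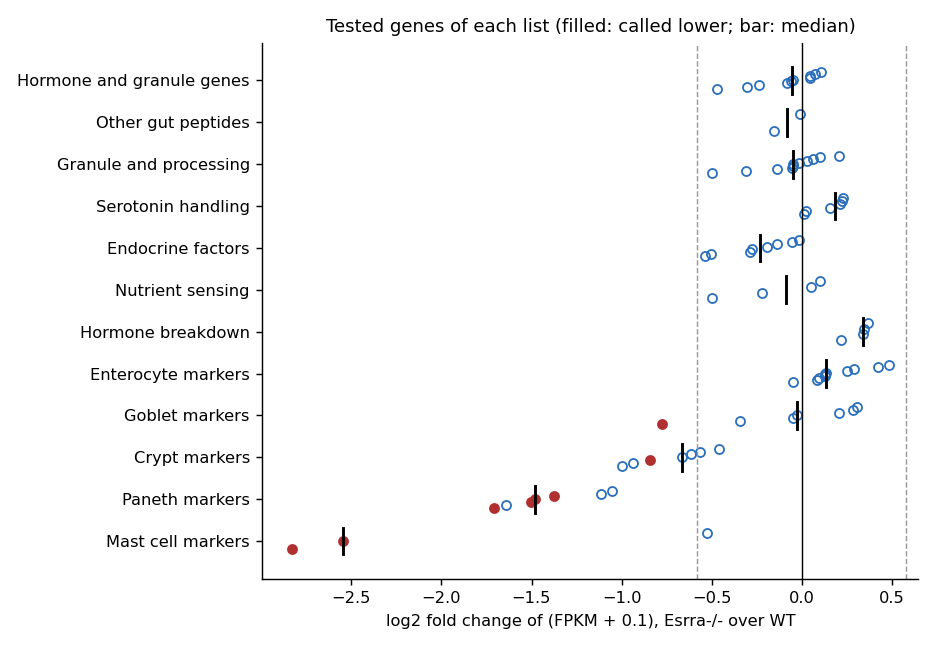
Log2 fold change of (FPKM + 0.1), *Esrra*-/- over WT (horizontal axis), of every tested gene of the 10 hormone and granule genes, 6 lists of related genes and 5 marker lists, with bars at each median, dashed lines at -0.58 and 0.58, and filled points for genes called lower. No gene of the first 7 lists is called, whereas 4 of 7 Paneth, 1 of 7 crypt, 1 of 7 goblet and 2 of 3 mast cell markers are called lower. Of all genes tested, 3.28% are called lower and 1.35% higher.

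The other epithelial lineages were read beside these lists, against the 3.28% of all genes tested that were called lower and the 1.35% called higher. Of the 7 Paneth markers, 4 were called lower (*Defa17*, *Defa24*, *Lyz1* and *Ang4*, median -1.48 over the list), with summed levels of 10641 to 23598 FPKM in WT and 2049 to 9731 in *Esrra*-/-. The smallest adjusted p of that list was 0.359 (limma), and the sum of 2049 FPKM was that of *Esrra*-/- replicate 3. Among goblet markers 1 of 7 was called lower (*Spink4*, -0.78, adjusted p = 0.410, limma), with a list median of -0.03 and *Zg16* the most abundant. The 4 tuft markers tested held none. The enterocyte markers, led by *Apoa4*, had a median of 0.14 (0 of 10 called). *Clps*, on the list of pancreatic acinar genes, was called lower (-1.24, adjusted p = 0.415, limma) while 6 of the 12 genes of that list were listed at 0 throughout. Proximal and distal position genes, led by *Gata4* (0.00) and *Osr2* (0.19), held no called gene, although *Slc40a1* of the proximal list (1.66 FPKM in WT and 0.739 in *Esrra*-/-, -1.28, SE 0.58, adjusted p = 0.480) and *Fabp6* of the distal list (-1.42, SE 1.23, highest in WT replicate 2) had larger differences that did not pass. These 2 were chosen after their values were seen. The 5 immune markers tested, led by *Gzma* (0.11), held none either, and *Vim* was the only mesenchymal marker tested. The Brunner gland markers were at most 0.218 FPKM in sum, with *Muc6* the higher.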

How the data were processed

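RNA-seq libraries of duodenal epithelium (3 WT, 3 *Esrra*-/-) were examined. Per the submitters' notes and the study's methods, the authors checked reads with fastQC (0.11.3), quantified them with kallisto (2.1.0) against mm9 and calculated FPKM with DESeq2 (2.2.1); the annotation is not given in the sources used here. The authors deposited FPKM values of 22611 genes. Their second table holds their own fold changes, p-values and mean counts and was not used.

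Genes with a mean FPKM above 1 (10596) were kept, and their log2(FPKM + 0.1) was fitted with limma (3.58.1, R 4.3.3; lmFit, eBayes with a trend, no covariate), checked on simulated data. A call needed p under 0.05 before adjustment together with a fold change beyond 0.58 in log2, the study's thresholds, and p-values were adjusted by Benjamini-Hochberg over all genes tested. The added 0.1 shrinks the fold changes of low genes. Because the values are FPKM, no count test was run; the study's methods give a nominal number of reads, but the depth of each library is not given by these values.

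The 10 genes and the lists were chosen with earlier results of these data known. Beyond the 10 genes, the text names *Esrra*; of each list of related genes the most abundant gene, the 3 with the smallest p and all called; of each marker list the most abundant, those called and defining markers at 0; and the genes closest in profile. Some genes that this rule names are not reported here. Gene coordinates are from GENCODE M1 on mm9 and promoter windows from RefSeq (GRCm38.p6). Alternatives were another pseudocount and filter, quantile and median-ratio scaling, limma without a trend, a replicate block and omitted libraries.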

Additional observations from a re-analysis of the deposited data

How the results depend on the processing

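Under the alternatives run, *Gip*, *Gcg* and *Tac1* kept a negative log2 fold change in all 14, but with 1 library left out they ran from -0.43 to -0.022 (*Gip*, nearest 0 without WT replicate 3), -0.56 to -0.048 (*Gcg*, nearest 0 without *Esrra*-/- replicate 3) and -0.76 to -0.27 (*Tac1*). The median over the 10 genes ran from -0.23 to 0.087. Pseudocount, filter, scaling and trend changed the sign of no gene. With the third replicate of each genotype left out, *Sst* was at 0.08 and *Tph1* at -0.26, *Nts* (0.37), *Ghrl* (0.25) and *Sct* (0.25) lay farther from 0, and *Gip* (-0.083), *Gcg* (-0.064) and *Tac1* (-0.25) nearer to it. Leaving out 1 library at a time gave log2 fold changes from -0.15 to 0.093 for *Cck*, -0.28 to 0.071 for *Chga*, -0.14 to 0.35 for *Ghrl*, -0.18 to 0.26 for *Nts*, -0.028 to 0.27 for *Sct*, -0.41 to 0.37 for *Sst* and -0.25 to 0.20 for *Tph1*, and from 0 to 1 genes called, from 0 to 1 genes with an unadjusted p under 0.05 and from 0 to 1 genes of the 6 related lists called. The single calls were *Tac1* (-0.76) and *O3far1*, now *Ffar4* (-0.76, adjusted p = 0.324, limma), without *Esrra*-/- replicate 2, and *Pyy* (-0.58, adjusted p = 0.545, limma) without WT replicate 1; the cause was not tested. The alternatives for the count at an unadjusted p and for the other lists were added after the data had been seen.

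The replicate numbers are shared between genotypes, but same-numbered libraries deviated together unevenly (correlations of 0.01, 0.26 and 0.38), and WT replicate 1 correlated best with *Esrra*-/- replicate 2 (0.18), so the numbers were not taken to pair mice. With a replicate block, 1 of the 10 genes had an unadjusted p under 0.05 (*Tac1*, adjusted p = 0.217, limma) and 0 were called. With 3 libraries per genotype, differences inside the intervals given remain possible.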

Other observations

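Transcripts of peptidases that can cut peptide hormones were abundant in these libraries, which do not show where the enzymes act. *Anpep*, aminopeptidase N of the enterocyte brush border, was at 2520, 2518 and 2533 FPKM in WT and 3395, 2087 and 4665 FPKM in *Esrra*-/-. The WT libraries were nearly equal while the *Esrra*-/- libraries lay on both sides of them, and the log2 fold change was 0.35 (SE 0.33, adjusted p = 0.736, limma). *Mme*, neprilysin, was at 216, 211 and 211 FPKM in WT and 307, 209 and 304 FPKM in *Esrra*-/- (0.34, SE 0.19, adjusted p = 0.561, limma). *Dpp4*, the protease that inactivates GIP and GLP-1, was at 146, 124 and 155 FPKM in WT and 166, 122 and 219 FPKM in *Esrra*-/- (0.22, SE 0.23), and *Ece1* was at 0.37. None of these 4 passed the test, where 4.63% of all genes tested were called. The groups overlapped for each, while 17.6% of all genes tested had groups that did not. The receptors *Cckbr*, *Ghsr* and *Ntsr1* were listed at 0 in all 6 libraries.

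Among genes through which enteroendocrine cells sense nutrients, 4 of 16 were tested and none was called, where 4.63% of all genes tested were. *Slc5a1*, the glucose transporter SGLT1, which enterocytes express as well, was the most abundant, at 539, 345 and 840 FPKM in WT and 419, 207 and 1134 FPKM in *Esrra*-/- (log2 fold change -0.22, SE 0.61). It was highest in the third replicate and lowest in the second in both genotypes. *O3far1*, the long-chain fatty acid receptor now named *Ffar4*, was at 3.24, 3.16 and 2.82 FPKM in WT and 2.16, 3.12 and 1.45 FPKM in *Esrra*-/- (-0.50, SE 0.27, adjusted p = 0.553, limma), with a single *Esrra*-/- library inside the WT range. *Trpc2* was at 0.10.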
